A study of Mus musculus with 8 samples.

Results

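The chemokine gene Cxcl12 was followed together with the genes of its receptors Cxcr4 and Ackr3 and of the peptidase Dpp4 in RNA-seq libraries, 8 in all, made from mesenchymal cells of the mouse large intestine after sorting. The 4 genes were chosen by symbol, from knowledge of the pathway and with earlier results of these data known. They came out of 24346 symbols in each table, and all 4 were listed in every library. The sort kept podoplanin-positive (gp38), PDGFRα-high cells without CD45, EpCAM, CD31 or Ly6C. The control library came from Cxcl12 flox/flox mice, and the Foxl1-Cre library from Foxl1cre; Cxcl12 flox/flox mice, in which Cre acts where the Foxl1 driver is active. Both carried the floxed alleles and neither was treated. The other 6 libraries came from C57BL/6 mice, with treatment by 1 mM GABA and 20 mM taurine, 3 libraries labelled 0 h and 3 labelled 6 h. No untreated 6 h library is among them, so elapsed time and treatment cannot be told apart. The age of the mice, the strain of the floxed lines, the number of animals per library and any culture before treatment were not given in the sources used here.

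CXCL12 is a secreted chemokine that stromal cells make constitutively. It signals through the G protein-coupled receptor CXCR4, which is carried by many leukocytes and endothelial cells. ACKR3 is an atypical receptor that binds CXCL12, recruits arrestins and takes the chemokine up for degradation without classical G protein signalling. DPP4 (CD26) is a membrane peptidase that removes the N-terminal dipeptide of CXCL12 and so inactivates it. In the gut, the Foxl1-expressing cells beneath the epithelium are one source of stromal signals to epithelial and immune cells.

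Cxcl12 lies on chromosome 6 from 117168535 to 117181367 on the plus strand (mm10, GENCODE M21), with 4 annotated transcripts, 3 of them coding. Cxcr4 lies on chromosome 1 from 128588199 to 128592293 on the minus strand, Ackr3 on chromosome 1 from 90203980 to 90216751 on the plus strand, and Dpp4 on chromosome 2 from 62330073 to 62412231 on the minus strand. The protocol does not mark strand, and an annotated antisense gene, Gm13561, overlaps Dpp4, so reads of the pair cannot be told apart. No annotated gene overlaps the other 3. FPKM was given per symbol, so each value sums over a gene's transcripts, and the position of the loxP sites was not given in the sources used here.

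The 120 bases before each RefSeq start (GRCm38.p6) are shown so that the windows of an abundant ligand gene and of 3 less abundant partner genes can be read side by side. Capitals mark GC boxes (GGGCGG, either strand) and TATA boxes (TATAAA, either strand), and matches may overlap.
Cxcl12, chr6:117168415-117168534, plus strand: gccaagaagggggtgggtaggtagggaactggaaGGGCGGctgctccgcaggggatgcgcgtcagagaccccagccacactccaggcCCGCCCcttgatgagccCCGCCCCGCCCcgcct
Cxcr4, chr1:128592300-128592419, minus strand: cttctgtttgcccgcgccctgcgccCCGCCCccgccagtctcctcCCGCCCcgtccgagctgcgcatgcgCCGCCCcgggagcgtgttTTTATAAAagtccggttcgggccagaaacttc
Ackr3, chr1:90203860-90203979, plus strand: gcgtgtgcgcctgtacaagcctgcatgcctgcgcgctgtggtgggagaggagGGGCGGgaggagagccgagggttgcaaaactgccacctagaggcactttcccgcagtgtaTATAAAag
Dpp4, chr2:62412232-62412351, minus strand: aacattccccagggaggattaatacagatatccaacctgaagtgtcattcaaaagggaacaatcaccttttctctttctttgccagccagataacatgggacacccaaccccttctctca
The Cxcl12 window held 4 GC boxes and no TATA box, at 71.7% G and C. The Cxcr4 window held 3 GC boxes and a TATA box matched on both strands, at 68.3% G and C. Ackr3 had 1 GC box and 1 TATA box, and Dpp4 had neither and no CpG. Of 32851 RefSeq windows of this length, 26.5% held a GC box and 6.34% a TATA box. These matches describe the letters and are not evidence of binding.

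Summed FPKM ran from 513001 to 579004 per library, and the number of reads behind the values is unknown. Between 20874 and 21006 genes were above 0 in the genotype libraries, against 14818 to 14974 in the GABA and taurine libraries. The sorting markers Pdgfra and Pdpn were at or above 91.7 FPKM in all 8 libraries, while Foxl1 stood at 10.2 and 11.6 FPKM in the genotype libraries and at most at 0.289 FPKM in the other 6. Ly6c1, which encodes a Ly6C protein that the gate excluded, stood at 140.9 FPKM (control), 89.6 FPKM (Foxl1-Cre) and 8.76 to 12.4 FPKM (the other 6). The library sets may have been normalised separately, so no test was run between them. In bulk libraries, fewer cells of a type and less RNA per cell cannot be told apart.

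The ligand was the most abundant of the 4 genes in every library. Cxcl12 stood at 1298 FPKM (control) and 739.7 FPKM (Foxl1-Cre). The 0 h libraries held 860.4, 875.1 and 916.1 FPKM, and the 6 h libraries 950.8, 945.5 and 969.4 FPKM. Only the Foxl1-Cre library lay below all 6 GABA and taurine libraries, and only the control lay above them. Among all listed genes Cxcl12 ranked 36 in the control, 80 in the Foxl1-Cre library and between 62 and 87 in the others. In descending order the levels were control, 6 h, 0 h and Foxl1-Cre. The genotype values have no replicate spread.

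**Figure D1:**
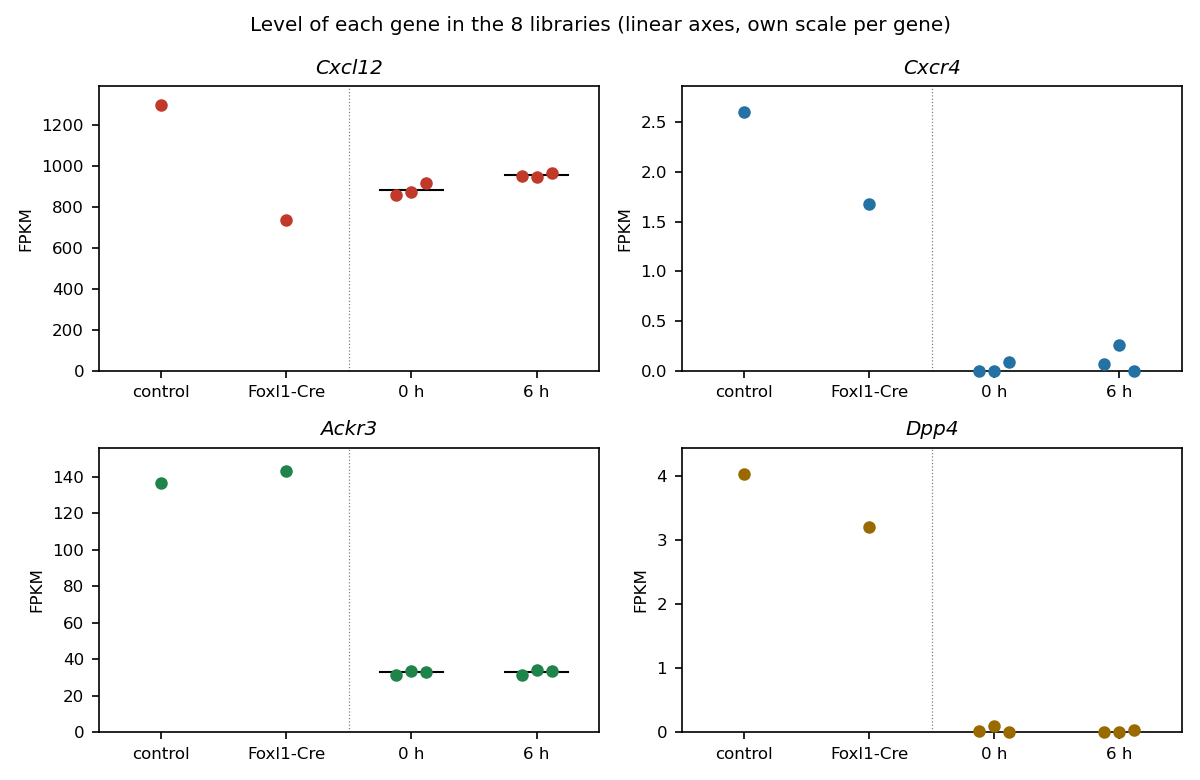
FPKM of Cxcl12, Cxcr4, Ackr3 and Dpp4 in each library, on linear axes with a separate scale per gene. Each point is 1 library and the bars are means of 3 libraries, drawn for Cxcl12 and Ackr3, the genes with no value of 0. Cxcl12 stays between 739.7 and 1298 FPKM throughout, whereas the other 3 genes are lower in all 6 GABA and taurine libraries than in both genotype libraries.

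The genotype comparison asks how the pathway stands when Cxcl12 is floxed and Foxl1-Cre is present. Cxcl12, the targeted gene, was in the Foxl1-Cre library at 57% of the control, a log2 ratio of FPKM + 1 of -0.81. Ackr3 was close in the pair (136.6 FPKM in the control, 143 FPKM in the Foxl1-Cre library, log2 ratio 0.07), and its sign turned negative when the libraries were rescaled (-0.02 by either scaling), although relative to the median of all genes it stayed at 0.02 to 0.03. Cxcr4 stood at 2.6 and 1.68 FPKM (log2 ratio -0.43) and Dpp4 at 4.03 and 3.21 FPKM (log2 ratio -0.26). In plain FPKM the Foxl1-Cre library held 64.6% of the control level of Cxcr4, 79.6% of that of Dpp4 and 104.7% of that of Ackr3. Over the pair 14949 genes averaged 1 FPKM or more. On the log2(FPKM + 1) scale 7.00% of them were at least 1.5-fold lower in the Foxl1-Cre library. Cxcl12 was the 1 gene of the 4 among them. In plain FPKM Cxcr4 was 1.55-fold lower as well. None of the 4 was at least 1.5-fold higher (4.16% of all genes), at least 2-fold lower (2.22%) or at least 2-fold higher (1.36%). A ratio as low as that of Cxcl12 was found in 3.53% of all these genes, as low as that of Cxcr4 in 11.3% and as low as that of Dpp4 in 19.5%. With at least 100 FPKM in the control there were 864 genes, 25 of which were as low as Cxcl12, itself included. That cut used the control library only, so it favours genes that are lower in the Foxl1-Cre library. Of the 25, 23 were predicted genes, ribosomal protein genes or small RNAs. The share of such genes among the 864 was not counted. Over all 14949 genes 527 were as low as Cxcl12, and 178 of these were of those classes. Whether the gene-level FPKM covers the deleted part cannot be told without the loxP positions. Each genotype is 1 library, so none of these differences has a replicate check.

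Markers of other cells moved in the same pair. Over all genes 4.16% were at least 1.5-fold higher in the Foxl1-Cre library and 7.00% at least 1.5-fold lower. The 14 epithelial markers summed to 115.2 FPKM (control) and 1074 FPKM (Foxl1-Cre), with 12 of the 13 measured at least 1.5-fold higher. The 7 mesenchymal markers summed to 13834 and 15404 FPKM, with 6 of 7 higher and a median log2 ratio of 0.16. Relative to Pdgfra in the same library, the Cxcl12 ratio was -0.97 on the log2 scale. For Cxcr4, which leukocytes and endothelium carry, 15 leukocyte markers summed to 549.5 FPKM (control) and 653.9 FPKM (Foxl1-Cre). Most of these sums was Cd74 (307.6 and 362 FPKM). Of the 13 leukocyte markers measured, 11 were higher, 2 of them at least 1.5-fold, and none was at least 1.5-fold lower. For the leukocyte and mesenchymal markers, the share of all genes that were higher by any amount was not counted. The 12 endothelial markers summed to 73.3 and 45.9 FPKM, with 6 of 8 measured at least 1.5-fold lower. The part of these cells in the Cxcl12 and Cxcr4 values was not tested.

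**Figure D2:**
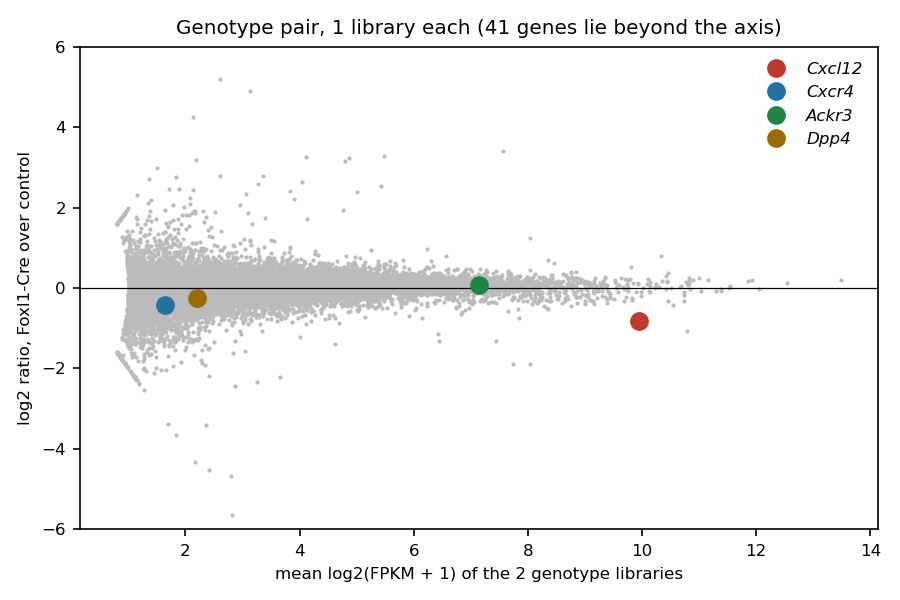
Log2 ratio of Foxl1-Cre over control (vertical axis) against mean log2(FPKM + 1) of the 2 genotype libraries (horizontal axis) for 14949 genes, 1 grey point each, with the 4 named genes in colour. Cxcl12 lies at -0.81, below most genes of its level, Ackr3 lies at 0.07, and 41 genes fall beyond the plotted range.

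The time comparison asks what changes between 0 h and 6 h of GABA and taurine. Cxcl12 went from 883.9 ± 28.9 to 955.2 ± 12.6 FPKM (SD, n = 3), a difference of 8.07% between means, with all 6 h libraries above all 0 h libraries. The log2 change was 0.11 (SE 0.05, limma adjusted p = 0.459 over 10910 genes), so it was not past the threshold of 0.05, and the fold change had a 95% interval of 1.01 to 1.16. Among all genes tested, 0.550% passed the adjusted threshold, and 9.38% had an unadjusted p under 0.05, Cxcl12 among them. Without overlap between groups, 7.25% were higher at 6 h and 8.01% lower. The exact two-sided permutation test of Cxcl12 gave p = 0.1, the smallest possible with 3 against 3 libraries. The 7 mesenchymal markers also changed in the positive direction in 7 of 7, with a median of 0.22 against -0.00185 for all genes, but none was past the threshold. Pdgfra stood at 152.3 to 195.5 FPKM at 0 h and at 207.6 to 227.3 FPKM at 6 h (limma adjusted p = 0.15). The epithelial markers summed to at most 4.61 FPKM at 0 h and at least 4.83 FPKM at 6 h. Of the 14, 7 were under 0.5 FPKM in all 6 libraries. They did not move together, since mean Krt19 was 0.444 and 0.752 FPKM and mean Guca2a 0.366 and 0.216 FPKM. Krt8 is part of these sums, and sums without it were not taken. One of the 2 tested, the keratin gene Krt8, rose from 0.396 ± 0.291 to 2.06 ± 0.285 FPKM (SD, n = 3; limma log2 change 1.15, SE 0.20, adjusted p = 0.0319). The 3 tested leukocyte markers changed in the positive direction, with a median of 0.65, and none passed. Their part in the Cxcl12 value was not tested.

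For the scavenging receptor gene no change was detected over this interval. Ackr3 stood at 31.6, 33.7 and 33.3 FPKM at 0 h and at 31.4, 34.2 and 33.5 FPKM at 6 h. The groups overlapped, and the means of 32.9 ± 1.1 and 33.0 ± 1.5 FPKM (SD, n = 3) differed by less than either SD. The log2 change was 0.01 (SE 0.07, limma adjusted p = 0.989), with a 95% interval of the fold change from 0.90 to 1.12, and its sign turned negative without 0 h replicate 1 (-0.0215), 6 h replicate 2 (-0.0204) or 6 h replicate 3 (-0.00475). Per library, Ackr3 was 3.68%, 3.85% and 3.64% of the Cxcl12 level at 0 h and 3.30%, 3.62% and 3.45% at 6 h, so the 6 h shares lay lower, the nearest pair being 3.64% and 3.62%. This share was looked at after the values were seen and was not tested.

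The signalling receptor and the protease were near the bottom of the scale here. Cxcr4 was listed at 0, 0 and 0.0937 FPKM at 0 h and at 0.0691, 0.257 and 0 FPKM at 6 h. Dpp4 was listed at 0.0191, 0.105 and 0 FPKM at 0 h and at 0, 0 and 0.034 FPKM at 6 h. Each gene was thus at 0 in 3 of the 6 libraries, and the time groups overlapped for both. Neither reached the mean of 1 FPKM needed to enter the test. In a limma fit without that minimum their adjusted p-values were 0.837 and 0.865, and exact permutation tests gave p = 0.7 for each. A listed 0 need not mean absence, although 10 ubiquitous genes such as Actb and Tbp were never below 13.7 FPKM.

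Between the library sets, 3 of the 4 genes were lower in the GABA and taurine libraries without overlap. Over 12043 genes averaging 1 FPKM or more, without Cxcr4 and Dpp4, 37.8% were lower and 41.3% higher without overlap. Ackr3 was lower in all 6 GABA and taurine libraries, at 31.4 to 34.2 FPKM against 136.6 and 143 FPKM, so the lowest genotype value was 3.99 times the highest of the other set. For Cxcr4 the lowest genotype value (1.68 FPKM) was 6.53 times the highest of the other set (0.257 FPKM). For Dpp4 the corresponding values were 3.21 and 0.105 FPKM, a ratio of 30.6. The Cxcl12 values overlapped between the sets. Among the 12043 genes averaging 1 FPKM or more over all 8, 21.9% were at least 2-fold lower without overlap in the GABA and taurine libraries and 19.8% at least 2-fold higher. Cxcl12 and Ackr3 were among the 12043, and Cxcr4 and Dpp4 were not. A log2 difference as low as that of Ackr3 (-2.05) was found in 10.1% of these genes, and one as low as that of Cxcl12 (-0.09) in 45.2%.

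The comparison of sets moved with the scaling. The median difference of all genes was 0.05 on the log2 scale as deposited, -0.77 after upper quartile scaling and -0.37 after median ratio scaling. Relative to that median, Ackr3 stood at -2.10, -2.20 and -2.15, and Cxcl12 at -0.14, -0.25 and -0.20. Relative to Pdgfra the Cxcl12 difference was 0.03, of the opposite sign. The within-library share, which no scaling of a library can alter, was lowest in the GABA and taurine libraries too. Ackr3 was 10.5% of the Cxcl12 level in the control, 19.3% in the Foxl1-Cre library and 3.30% to 3.85% in the other 6. The higher share in the Foxl1-Cre library came with a lower Cxcl12 level at similar Ackr3.

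**Figure D3:**
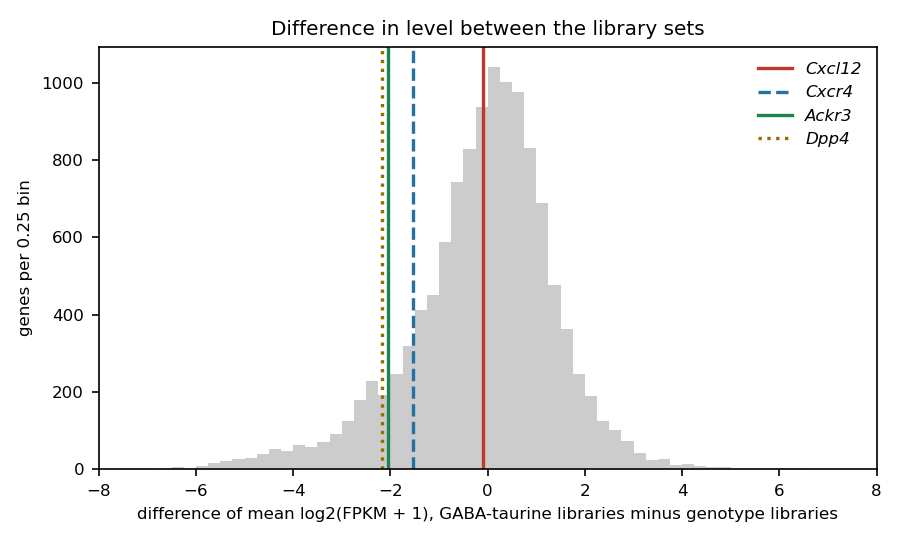
Histogram of the difference of mean log2(FPKM + 1) between the 6 GABA and taurine libraries and the 2 genotype libraries for 12043 genes, with vertical lines at the 4 named genes, of which Cxcr4 and Dpp4 are too low to be in the histogram. Cxcl12 lies near the centre at -0.09, and Cxcr4, Ackr3 and Dpp4 lie on the left flank at -1.54, -2.05 and -2.16.

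Marker genes also differed between the sets, not all in 1 direction. The 7 mesenchymal markers summed to 13834 and 15404 FPKM in the genotype libraries and to between 1215 and 1371 FPKM in the other 6. Of the 7, 5 were at least 2-fold lower without overlap, beside 21.9% of all genes, and 1 at least 2-fold higher, beside 19.8%. The higher one was the sorting marker Pdpn (96.1 and 91.7 FPKM against 280.7 to 303.7 FPKM), and Pdgfra overlapped. The same shares of all genes apply to the counts below. The epithelial markers summed to between 2.78 and 8.43 FPKM in those 6. The 15 leukocyte markers summed to 549.5 and 653.9 FPKM in the genotype libraries and to between 2.82 and 15 FPKM in the other 6, where Ptprc was at most 0.216 FPKM. The 12 endothelial markers summed to 73.3 and 45.9 FPKM and to between 14.4 and 21.6 FPKM. Of the 5 measured, 3 were at least 2-fold lower without overlap, while Egfl7 and Esam overlapped between the sets. Cldn5 and Tie1 were at 0 in all 6, and were low in the genotype libraries too (0.824 and 0.394 FPKM, 1.78 and 1.94 FPKM). The 6 markers of Pi16-positive fibroblasts, a population known to carry DPP4, summed to 975.7 and 967.4 FPKM and to between 447.1 and 523.2 FPKM, but did not move together. Without overlap, 4 of the 6 were at least 2-fold lower, among them Pi16 (39.4 and 53.8 FPKM against 3.78 to 5.89 FPKM), and 1, Anxa3, was at least 2-fold higher (43.2 and 71.1 FPKM against 211.5 to 234.6 FPKM). Genes of Foxl1-positive subepithelial cells summed to 888.1 and 981.3 FPKM and to between 470.8 and 617.6 FPKM, with 7 of 10 at least 2-fold lower. Most of the sum in the 6 libraries was F3, whose values overlapped between the sets (368.7 and 451.3 FPKM against 393 to 523.4 FPKM), while Bmp5 stood at 188.8 and 196 FPKM against 1.35 to 2.77 FPKM. Their part in the lower Cxcr4, Dpp4 and Ackr3 values was not tested.

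Among 97 genes that act around CXCL12, in 8 lists, 61 were tested over time. Penk and Mmp3 rose and none fell past the limma threshold, where over all genes 0.238% rose and 0.312% fell. At an unadjusted p under 0.05 there were 4 higher and 7 lower, beside 9.38% of all genes in either direction. The median log2 change of the 61 was 0.03 against -0.00185 for all genes.

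Of the other ligands of Cxcr4 or Ackr3, Penk was the 1 of 5 tested that passed. It encodes proenkephalin, whose opioid peptides ACKR3 also scavenges. Penk stood at 164.9, 156.4 and 145.1 FPKM at 0 h and at 195.9, 198.7 and 195.3 FPKM at 6 h, with no overlap. The log2 change was 0.34 (SE 0.06, limma adjusted p = 0.0288). It was past the threshold in 6 of 13 alternatives, chosen after the data were seen. Among those that lost the call, the limma adjusted p was 0.149 without 0 h replicate 2, 0.107 without 6 h replicate 1, 0.159 without 6 h replicate 2, 0.0649 without 6 h replicate 3, 0.249 without the filter and 0.345 without the trend. Adm, which encodes the ACKR3-binding peptide adrenomedullin, stood at 242.3 ± 8.82 and 243.2 ± 12.5 FPKM (SD, n = 3) and had the largest ratio in the genotype pair among genes of its list with at least 10 FPKM in a library, at 48.0 FPKM (control) and 58.8 FPKM (Foxl1-Cre).

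Among other proteases that cleave CXCL12, Mmp3, the stromelysin, was the 1 of 6 tested that passed. It stood at 546.1, 526 and 573 FPKM at 0 h and at 690.9, 709.2 and 707.2 FPKM at 6 h, with no overlap (limma log2 change 0.36, SE 0.05, adjusted p = 0.0191). It was past the threshold in 8 of 13 alternatives. The limma adjusted p was 0.115 without 0 h replicate 2, 0.0573 without 6 h replicate 1, 0.144 without 6 h replicate 2, 0.244 without the filter and 0.304 without the trend. In the genotype pair Mmp3 stood at 24 FPKM (control) and 33.8 FPKM (Foxl1-Cre). Mmp2, the gelatinase gene, was the reverse across the sets, at 857 and 839 FPKM in the genotype libraries and 80.9 to 93.3 FPKM in the others, and was chosen after its values were seen. The neutrophil protease genes Elane and Ctsg were listed at 0 in all 6 GABA and taurine libraries.

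None of the other 6 lists had a gene past the limma threshold. Adrbk1, the kinase that phosphorylates activated receptors, had the smallest p of the 11 tested genes for receptor coupling, arrestins and RGS proteins. It stood at 18.3, 20.5 and 13.6 FPKM at 0 h and at 11.3, 9.74 and 13.3 FPKM at 6 h, without overlap (limma adjusted p = 0.154). Rgs1, a GTPase-activating protein of leukocytes, stood at 4.79 FPKM (control) and 12.2 FPKM (Foxl1-Cre). Ext1, a heparan sulfate polymerase, had the smallest p of 20 tested genes for the sugar chains that hold CXCL12 at cell surfaces, at 93.8 ± 12 and 67.8 ± 9.17 FPKM (SD, n = 3; limma adjusted p = 0.0796). In that list 19 of 21 genes were higher in the Foxl1-Cre library, with a median log2 ratio of 0.18 against 0.04 for all genes. After either rescaling the median of all genes was -0.04, so the smallest of these ratios depend on the scaling. The share of all genes that were higher was not counted. Hs3st1, a heparan sulfate sulfotransferase, had the largest ratio, at 22.6 FPKM (control) and 34.6 FPKM (Foxl1-Cre).

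All 6 measured relatives of Dpp4 were higher in the Foxl1-Cre library, with a median log2 ratio of 0.19 against 0.04 for all genes. The share of all genes that were higher by any amount was not counted. Of the 6 relatives, 1 was at least 1.5-fold higher, beside 4.16% of all genes. Prep, prolyl endopeptidase, stood at 125.2 ± 1.72 and 113.1 ± 6.33 FPKM (SD, n = 3; limma adjusted p = 0.435). Fap, fibroblast activation protein, stood at 12.8 FPKM (control) and 20.4 FPKM (Foxl1-Cre), and at 0.663 to 1.87 FPKM in the other 6. Of the 6 relatives measured over the 8 libraries, 1 was at least 2-fold lower without overlap in the GABA and taurine libraries and 1 at least 2-fold higher, beside 21.9% and 19.8% of all genes.

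For regulators known from bone marrow stroma, Cebpb had the smallest p at 355.1 ± 52.3 and 304.1 ± 29.9 FPKM (SD, n = 3; limma adjusted p = 0.494). Arntl, the clock factor, stood at 13.7 FPKM (control) and 22.9 FPKM (Foxl1-Cre). Csf1, the macrophage growth factor, led the niche factors in both comparisons, at 84.1 and 94 FPKM in the genotype libraries and at 1039 ± 49.6 and 1073 ± 17.8 FPKM over time (SD, n = 3; limma adjusted p = 0.83). Across the sets the niche factors diverged, since Csf1 was higher and Lepr, the leptin receptor gene, was lower (58.5 and 60.7 FPKM against at most 0.73 FPKM); Lepr was chosen after its values were seen.

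Of 16 other chemokine receptors, 12 were under 0.5 FPKM in all 6 GABA and taurine libraries. Ccr6 and Ccr9 were listed at 0 in all 6. Low levels were common there, since 10821 to 10898 of all 24346 symbols reached 1 FPKM per library. The share of all symbols under 0.5 FPKM was not counted. Ccrl2 alone could be tested, at 24.1 ± 1.98 and 26.7 ± 5.05 FPKM (SD, n = 3; limma adjusted p = 0.811). Ccr7, a lymphocyte homing receptor, stood at 12.5 FPKM (control) and 16.6 FPKM (Foxl1-Cre). Ackr4, the other atypical receptor of gut fibroblasts, was, like Ackr3, lower across the sets, at 165 and 207 FPKM against at most 2.03 FPKM, and was chosen after its values were seen.

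**Figure D4:**
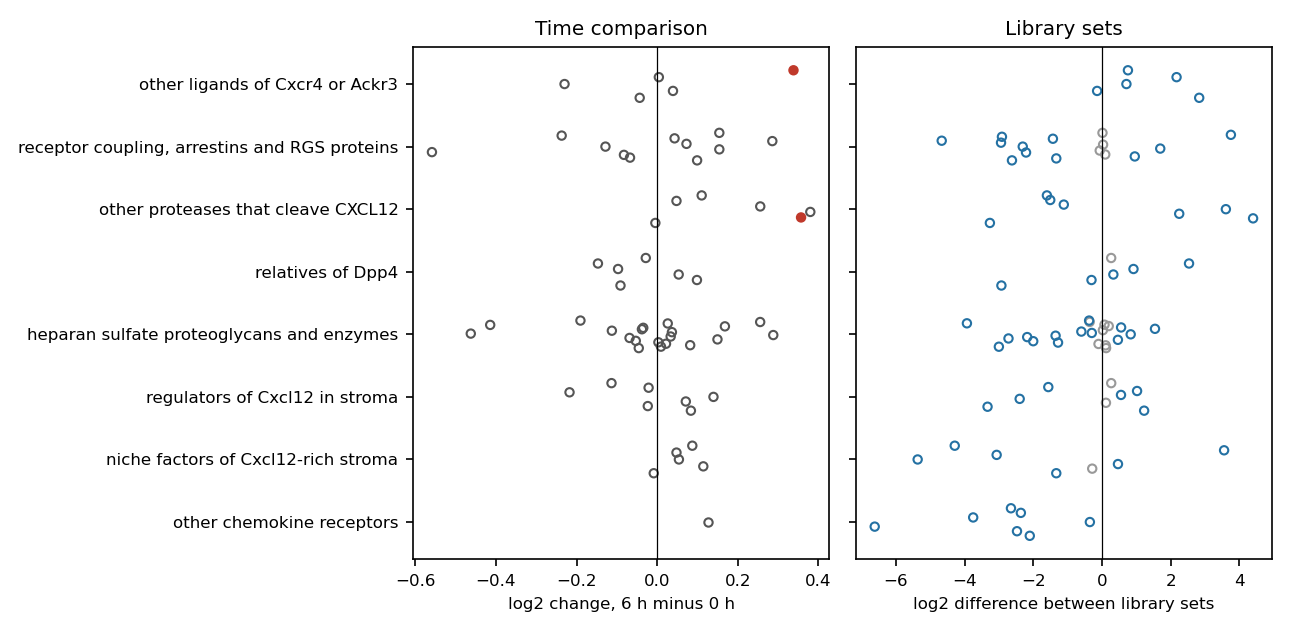
Each point is 1 gene of the 8 lists (rows). The left panel gives the log2 change from 0 h to 6 h for the 61 genes tested, filled red where past the limma threshold (Penk and Mmp3), and the right panel the log2 difference between the library sets for 76 genes, blue where the sets do not overlap and grey where they do.

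Over the 76 list genes that averaged 1 FPKM or more, 33 were at least 2-fold lower without overlap in the GABA and taurine libraries and 12 at least 2-fold higher. Lower by that measure were 8 of 15 receptor coupling genes, 7 of 21 heparan sulfate genes, 4 of 7 niche factors and 6 of 7 other chemokine receptors, while none of the 5 other ligands was lower and 2 were higher. Of the 7 proteases, 4 were lower and 3 higher. The same shares over all genes were 21.9% and 19.8%.

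Genes with the pattern most like each member were found by the root mean square difference of centred log2(FPKM + 1) profiles over the 8 libraries. For Cxcl12 these were Usf2 (0.09), Hlf (0.10), Fzd3 (0.10), Depdc7 (0.10) and Kank3 (0.12), all at 6.82 FPKM or less. For Ackr3 they were Zfp395 (0.05), Myl9 (0.05) and Bbs9 (0.06), of which Myl9 was the most abundant, at 534 and 541.9 FPKM in the genotype libraries and 123.9 to 140.4 FPKM in the others. For Dpp4 they were Acaa2 (0.08), Slc10a1 (0.08) and Ltbp3 (0.08), and for Cxcr4 Brip1os (0.06), Bckdha (0.10) and Adck3 (0.11). These profiles include the difference between the library sets. For each named gene, 57 to 401 genes had a difference at most 0.1 above its own, so the matches are not distinctive. In plain FPKM the genotype mean of Cxcr4 was 30.6 times the other mean, and that of Dpp4 137 times. Brip1os stood at 17.6 and 14.6 FPKM against 4.42 to 5.95 FPKM, and Acaa2 at 112.9 and 95.4 FPKM against 21.9 to 25.3 FPKM. Slc10a1, at 4.74 and 3.17 FPKM against 0 to 0.111 FPKM, fell near 0 as Dpp4 did. For Ackr3 the genotype mean was 4.24 times the other mean. Zfp395 stood at 3.99 and 4.09 FPKM against 0.194 to 0.383 FPKM, and Bbs9 at 6.03 and 6.37 FPKM against 0.552 to 0.867 FPKM. The likeness for Cxcr4, for Dpp4 except Slc10a1, and of Zfp395 and Bbs9 to Ackr3 therefore holds on the log2(FPKM + 1) scale only.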

How the data were processed

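The authors deposited 1 table per library with FPKM (a length- and depth-scaled fragment value) for each gene symbol, per the file headers. The labels' protocols name total RNA, SMART-Seq HT cDNA and Nextera XT libraries. The submitters' processing notes name mm10, Cuffdiff 2.2.1, SAMtools 0.1.18, Bowtie2 2.2.8 and TopHat2 2.1.1, without saying which step each served. The annotation, multi-mapping reads and scaling of libraries were not given in the sources used here.

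For 6 h against 0 h, log2(FPKM + 1) was fitted with limma 3.58.1 (R 4.3.3, intensity trend) over the 10910 genes averaging 1 FPKM or more, with Benjamini-Hochberg adjustment over all of them and a threshold of 0.05. This scale understates changes of low genes. The labels do not say that replicates were separate animals or cultures, so p-values cover only library-to-library spread, which may be technical. The genotype pair and the library sets were described without a test. The fit was tested on simulated data. No 2 libraries shared more than 1 equal value at or above 1 FPKM.

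The members and the gene lists were chosen with earlier results of these data known. Named genes were the 4 members and, from each list, those past the threshold or else the smallest p, the largest genotype ratio among genes of at least 10 FPKM in a library, and the genes of most similar profile, passing over predicted, ribosomal protein and small RNA genes. Promoter sequences are RefSeq's, and all 4 members matched by symbol. Alternatives were the pseudocount, the filter, 2 scalings, the trend, the block and leaving out each library.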

Additional observations from a re-analysis of the deposited data

How the results depend on the processing

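No alternative brought Cxcl12 or Ackr3 past the threshold over time. With 1 library left out, the log2 change of Cxcl12 ran from 0.09 to 0.14 (limma adjusted p from 0.289 to 0.716), that of Ackr3 from -0.0215 to 0.0412, with reversed signs of -0.0215 without 0 h replicate 1, -0.0204 without 6 h replicate 2 and -0.00475 without 6 h replicate 3, that of Cxcr4 from 0.00517 to 0.17 and that of Dpp4 from -0.0695 to 0.00245. With a pseudocount of 0.1 the changes of Cxcr4 and Dpp4 were 0.55 and -0.29. The 60 genes called over time became 0 without the filter and 0 without the trend (1322 and 960 at an unadjusted p under 0.05), 23 with the replicate block, and 2 to 115 with 1 library left out (without 0 h replicates 1, 2 and 3 in turn 6, 3 and 115, without 6 h replicates 1, 2 and 3 in turn 4, 2 and 41). Same-numbered libraries did not deviate together (correlations of -0.044, 0.013 and -0.028), no stated origin ties the numbers, and not every library correlated best with its own number (0 h replicate 3 with 6 h replicate 1, 0.067). With the block the limma adjusted p was 0.655 for Cxcl12 and 0.0707 for Penk, whose call was lost, and 0.0405 for Mmp3. For Cxcr4 and Dpp4 over time, the filter at 10 FPKM, the fit without trend and the block gave no value, since both lie below the filter. In the genotype pair, upper quartile scaling, median ratio scaling and the ratio to Pdgfra gave -0.90, -0.90 and -0.97 for Cxcl12, -0.0196, -0.0221 and -0.095 for Ackr3, and -0.325, -0.327 and -0.418 for Dpp4. Relative to Pdgfra Cxcr4 stood at -0.586. A pseudocount of 0.1 gave -0.601 for Cxcr4 and -0.321 for Dpp4. Between the sets, in the same order of scalings, Cxcl12 stood at -1.01, -0.569 and 0.0314 (reversed), Ackr3 at -2.96, -2.52 and -1.93, and Dpp4 at -2.74, -2.45 and -2.04. Cxcr4 stood at -2.06 and -1.80 by the 2 scalings. A pseudocount of 0.1 gave -3.86 for Cxcr4 and -4.92 for Dpp4. Against the control alone the differences were -0.498 for Cxcl12, -1.75 for Cxcr4 and -2.29 for Dpp4, and from the 0 h libraries alone -0.149 for Cxcl12. The causes were not tested. The unknown read depth limits Cxcr4 and Dpp4 most, since their values in 6 libraries lie near 0.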
